A study of Mus musculus with 84 samples.

Results

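The mitochondrial ribosomal protein genes were followed through the reprogramming of mouse fibroblasts towards pluripotency. They were taken by symbol, as every row of the count table whose name begins with Mrpl or Mrps followed by a number. The rule found 76 of 18909 genes, 49 for proteins of the large subunit, 26 for the small subunit and Mrps36, which despite its name encodes a subunit of the 2-oxoglutarate dehydrogenase complex. All 76 passed the filter on low counts, which left 10979 genes for testing.

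The mitochondrial ribosome translates the few mRNAs that mitochondrial DNA encodes, all of them for subunits of the respiratory chain and ATP synthase. Its RNAs come from mitochondrial DNA, whereas its proteins are made in the cytosol from nuclear genes and imported. Many of these proteins have a counterpart in bacterial ribosomes (48 of the genes here) and others were added in mitochondria (27 genes). Pluripotent cells are known for a strong reliance on glycolysis, and fibroblasts for a greater use of respiration.

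RNA was read by STRT, a method for small numbers of cells that tags the 5′ end of each mRNA, and the values are read counts per gene. There were 10 groups of 3 libraries, 30 in all. MEF were wild-type embryonic fibroblasts of strain 129, grown in serum with FGF2 and heparin and not sorted, and ESC were the TNG MKOS embryonic stem cell line in LIF. The other 8 groups were TNG MKOS fibroblasts from chimeric embryos, which carry a Nanog-GFP reporter and a doxycycline-inducible cassette of Myc, Klf4, Oct4 and Sox2 linked to mOrange. They were a small fraction of a culture of wild-type fibroblasts, were kept in ESC medium with doxycycline and vitamin C, and were sorted for mOrange after 3, 6, 8 or 10 days. Of these, 4 groups carried a control BFP vector (Cont) and 4 a retroviral vector for constitutively active Smad3 (Sm3CA). MEF therefore differ from the day 3 groups in genotype, medium, viral vector, factor expression and sorting together, and the effects of these cannot be told apart. ESC likewise differ from MEF in genotype and medium as well as in cell type. From the day 10 groups ESC also differ in viral vector, doxycycline and vitamin C, and these effects cannot be told apart either. For MEF and ESC the labels do not say whether replicates were separate cultures, so p-values measure the spread between these libraries.

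Libraries held 1008596 to 2296059 reads, of which 7217 to 20707 fell in the mitochondrial ribosomal protein genes. Smad3, whose active form Sm3CA cells carry, was read at 184, 89.0 and 126 normalized counts in Sm3CA day 3 and at 18.7, 5.19 and 8.94 in Cont day 3. It was higher in Sm3CA on days 3, 6 and 8 (edgeR adjusted p = 2.62e-08, 0.0103 and 4.35e-06) and did not pass the test on day 10 (log2 fold change 1.02 ± 0.37, adjusted p = 0.17). The 6 fibroblast markers (Col1a1, Col1a2, Thy1, Twist1, Prrx1 and Pdgfrb) summed to 3542 to 5058 normalized counts in MEF, 319 to 468 in Cont day 3 and 2.74 to 9.03 in ESC. The 6 pluripotency markers (Pou5f1, Nanog, Zfp42, Dppa5a, Esrrb and Tdgf1) summed to 8.89 to 11.9 in MEF, 458 to 1016 in Cont day 10, 1053 to 2237 in Sm3CA day 10 and 28156 to 53554 in ESC. The 5 leukocyte markers summed to 457 to 1912 in MEF, mostly Lyz2, and to 12.9 to 34.3 in ESC, where 4 of the 5 had at most 3 reads in every library. In the 8 reprogramming groups this sum ranged from 299 to 2576. Epithelial markers summed to 41.2 to 80.0 in MEF and 160 to 184 in Cont day 3, endothelial markers to 1.11 to 8.64 and 0.891 to 2.59, and neural markers to 57.8 to 85.8 and 348 to 546. Later groups differed further. Neural markers were at 628 to 1894 in Cont day 8 and 227 to 375 in Sm3CA day 8. Epithelial markers were at 869 to 1014.5 in Cont day 6 and 775 to 791 in Sm3CA day 6. The part of other cell types in the changes below was not tested.

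Taken as one sum, mitochondrial ribosomal protein reads were the smallest share of the library in MEF and the largest on day 3 of reprogramming. The 3 MEF libraries gave 0.552, 0.614 and 0.625% of reads. Cont day 3 gave 0.962, 1.04 and 1.07%, and Sm3CA day 3 gave 0.982, 1.03 and 1.09%, so neither overlapped MEF. The mean share of Cont was lower on each later day, at 0.954% ± 0.0632 on day 6, 0.845% ± 0.0569 on day 8 and 0.801% ± 0.0621 on day 10 (SD, n = 3). Sm3CA gave 0.996% ± 0.0428, 0.956% ± 0.0701 and 0.798% ± 0.00823 on the same days. Neighbouring days overlapped in both series except for Sm3CA day 8 and day 10, where the lowest day 8 library (0.908%) was above the highest day 10 library (0.803%). ESC gave 0.653, 0.767 and 0.791%, above every MEF library and below every day 3 library, and overlapped Cont day 10. The 95% Wilson intervals of these shares were 0.0225 to 0.0371 percentage points wide, and cover counting error only. In bulk libraries, fewer cells of a type and less RNA per cell cannot be told apart.

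**Figure D1:**
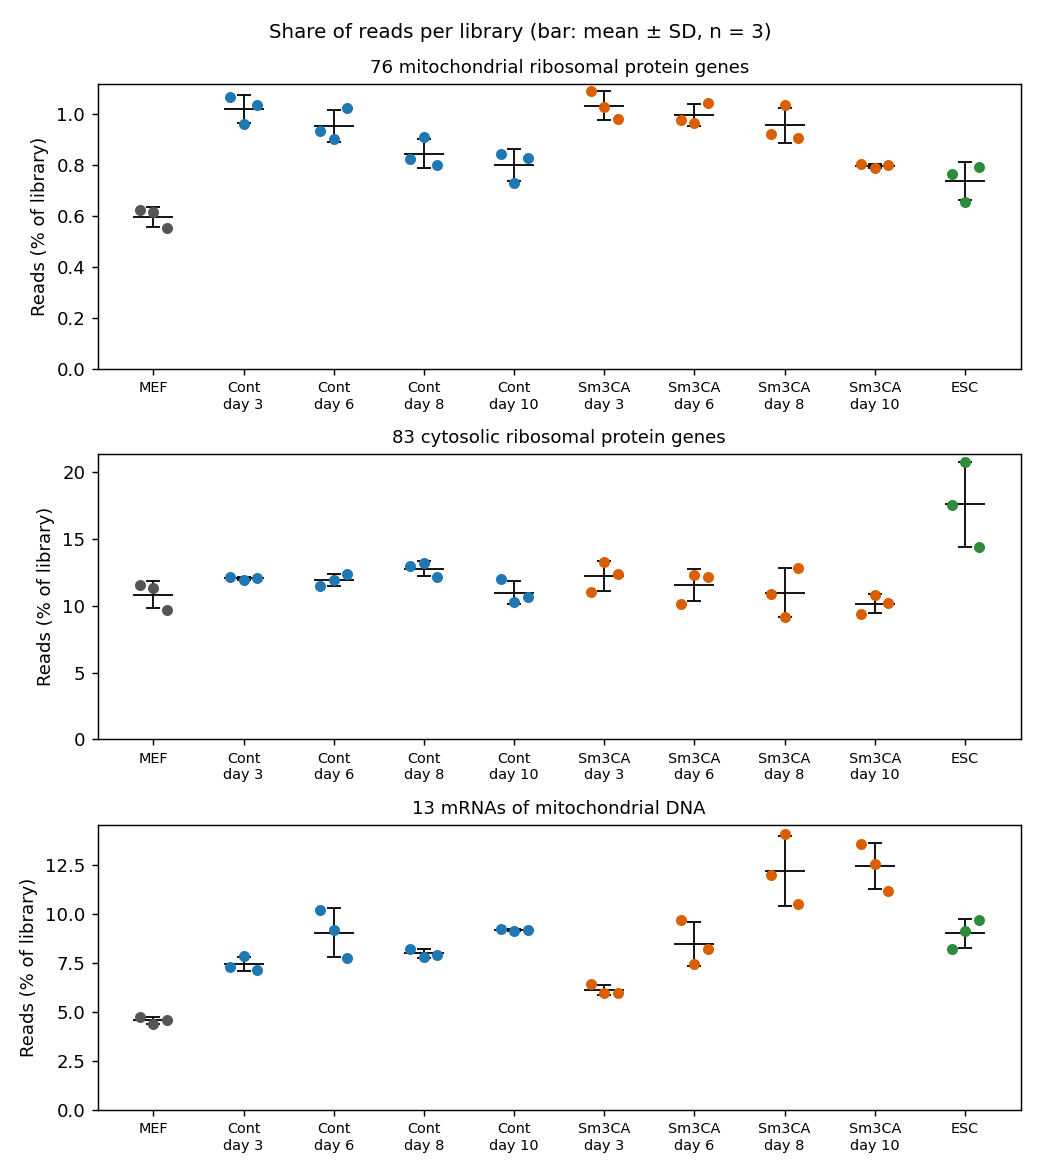
Reads of 3 gene groups as a percent of each library's reads (vertical axes, from 0) in the 10 groups (horizontal axis); each point is 1 library and the bars are mean ± SD of 3. The mitochondrial ribosomal protein genes are at 0.552 to 0.625% in MEF and 0.962 to 1.09% in the 6 day 3 libraries, while the cytosolic ribosomal protein genes are highest in ESC and the mRNAs of mitochondrial DNA are highest in Sm3CA day 8 and day 10.

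The cytosolic ribosome followed this course only in part. The share of the mRNAs that mitochondrial ribosomes translate was not lower on day 10 than on day 3. The 83 cytosolic ribosomal protein genes took 10.8% ± 1.02 of MEF reads and 17.6% ± 3.17 of ESC reads. In Cont they took 12.1% ± 0.103 on day 3, 12.8% ± 0.561 on day 8 and 10.98% ± 0.882 on day 10. In Sm3CA they took 12.2% ± 1.11 on day 3 and 10.1% ± 0.717 on day 10. Their mean share was thus lower on day 10 than on day 3 in both series, but it was highest in ESC. The 13 mRNAs of mitochondrial DNA took 4.57% ± 0.181 in MEF, 7.44% ± 0.368 in Cont day 3, 9.19% ± 0.0687 in Cont day 10 and 12.4% ± 1.18 in Sm3CA day 10. On day 10 the 3 Sm3CA libraries (11.2, 12.6 and 13.6%) were above the 3 Cont libraries (9.13, 9.18 and 9.26%) for these mRNAs, while the mitochondrial ribosomal protein shares of the same libraries overlapped. No test was run on these sums.

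The first 3 days of reprogramming were compared by setting Cont day 3 against MEF. Of the 76 genes, 51 rose and 1 fell by edgeR's quasi-likelihood test at a threshold of 0.05 on the Benjamini-Hochberg p over all genes tested, a share of 67.1% higher and 1.32% lower. Over all genes tested, 22.6% were called higher and 20.9% lower. The median log2 fold change was 0.83 for the mitochondrial ribosomal protein genes and 0.00 for all genes tested. In the large subunit 33 of 49 rose (median 0.91), and in the small subunit 18 of 26 (median 0.75). Of those with a bacterial counterpart 31 of 48 rose (median 0.80), and of the mitochondria-specific proteins 20 of 27 (median 1.22). Leaving out 1 MEF library at a time left 44 to 49 genes called higher.

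Mrpl9, a large subunit protein with a bacterial counterpart, rose most. It was read at 61.1, 61.9 and 70.9 normalized counts in MEF and at 466, 515 and 399 in Cont day 3, a log2 fold change of 2.94 ± 0.28 (SE, adjusted p = 9.71e-12). No Cont day 3 library overlapped MEF, and the mean was 460 ± 58.2 against 64.6 ± 5.43 (SD, n = 3). Mrpl40, a mitochondria-specific large subunit protein, went from 134, 139 and 121 to 586, 553 and 528 (log2 fold change 2.20 ± 0.21, adjusted p = 1.77e-11). Mrps22, a mitochondria-specific protein of the small subunit, went from 36.7, 29.3 and 38.9 to 163, 123 and 131 (2.10 ± 0.28, adjusted p = 3.8e-08). Mrpl1, of the stalk that leads transfer RNAs out of the ribosome, had 45.5, 82.5 and 36.3 in MEF and 192, 182 and 236 in Cont day 3 (2.02 ± 0.25, adjusted p = 7.6e-09). Mrps30, which sits in the large subunit in spite of its symbol, had 21.1, 11.9 and 49.3 in MEF and 98.9, 102 and 116 in Cont day 3 (2.02 ± 0.29, adjusted p = 3.74e-07). For each of these 5 genes every Cont day 3 library was above every MEF library.

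In Cont day 3 against MEF, 67 of the 76 genes had a positive log2 fold change and 9 a negative value. The 1 gene that edgeR called lower was Mrpl33, a small large subunit protein with a bacterial counterpart. It was read at 430, 372 and 254 normalized counts in MEF and at 99.8, 135 and 113 in Cont day 3, with no overlap (log2 fold change −1.49 ± 0.25, adjusted p = 6.94e-06). It was at 106 to 208 in all Sm3CA libraries and in Cont from day 6 on. The annotated gene spans 31596935 to 31664384 of chromosome 5 in mm10 and overlaps Rbks on the other strand.

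The 5′ ends of these genes are shown because STRT reads start there. RefSeq promoters (250 bases before to 50 after the annotated start, GRCm38.p6) matched 67 of the 76 genes. Those of the 3 genes that rose most and of the 1 called lower read as follows, 5′ to 3′ on the gene's strand, with matches to the searched motifs in capitals.
Mrpl9 (chr3:94443086-94443385, plus strand): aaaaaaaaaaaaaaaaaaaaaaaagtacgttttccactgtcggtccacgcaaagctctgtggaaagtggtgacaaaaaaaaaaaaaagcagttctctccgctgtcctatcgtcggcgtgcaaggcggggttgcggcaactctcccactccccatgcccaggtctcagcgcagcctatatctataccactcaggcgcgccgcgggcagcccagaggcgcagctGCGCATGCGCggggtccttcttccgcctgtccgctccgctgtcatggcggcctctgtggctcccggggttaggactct
Mrpl40 (chr16:18876588-18876887, minus strand): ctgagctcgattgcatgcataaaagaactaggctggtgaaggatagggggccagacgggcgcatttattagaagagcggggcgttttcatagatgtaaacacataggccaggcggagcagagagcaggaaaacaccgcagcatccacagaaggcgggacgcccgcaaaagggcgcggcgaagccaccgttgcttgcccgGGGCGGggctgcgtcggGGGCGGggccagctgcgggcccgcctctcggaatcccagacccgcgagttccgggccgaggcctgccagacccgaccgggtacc
Mrps22 (chr9:98601630-98601929, minus strand): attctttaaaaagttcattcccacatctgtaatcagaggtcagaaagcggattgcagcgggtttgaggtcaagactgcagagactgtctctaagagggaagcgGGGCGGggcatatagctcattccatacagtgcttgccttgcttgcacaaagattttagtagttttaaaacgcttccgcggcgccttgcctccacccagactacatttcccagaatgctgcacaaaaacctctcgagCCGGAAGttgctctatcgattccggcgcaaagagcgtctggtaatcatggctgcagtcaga
Mrpl33 (chr5:31613701-31614000, plus strand): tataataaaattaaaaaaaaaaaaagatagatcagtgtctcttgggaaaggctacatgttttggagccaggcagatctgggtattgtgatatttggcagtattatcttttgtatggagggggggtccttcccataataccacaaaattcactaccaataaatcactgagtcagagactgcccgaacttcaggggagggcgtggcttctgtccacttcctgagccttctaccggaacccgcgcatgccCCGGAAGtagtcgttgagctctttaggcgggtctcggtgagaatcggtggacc
The motifs searched on both strands were the NRF1 core GCGCATGCG, the ETS core CCGGAAG, the YY1 core AAGATGG, the E-box CACGTG and the Sp1 core GGGCGG. NRF1, GABP (an ETS factor) and YY1 are known regulators of nuclear genes for mitochondria. The NRF1 letters were in 10.4% of the 67 promoters against 4.03% of the 8115 promoters of all genes tested, the ETS letters in 34.3% against 19.5%, and the YY1 letters in 19.4% against 7.7%. The E-box was in 7.46% against 10.7% and the Sp1 letters in 49.3% against 66.2%. A match is a description of the letters only, and matches were not compared between the genes that rose and the others. The printed promoter of Mrpl9 holds NRF1 letters, that of Mrpl33 ETS letters, that of Mrps22 ETS and Sp1 letters and that of Mrpl40 only Sp1 letters.

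Many of the genes also share a promoter region with a neighbour. A protein-coding gene on the other strand starts within 1000 bases upstream, or overlaps the start by less than 200 bases, for 22 of the 76 (28.9%) and for 12.5% of the 10074 protein-coding genes tested. Mrps12 starts back to back with Sars2, the mitochondrial seryl-tRNA synthetase, Mrpl36 with Ndufs6 of respiratory complex I, Mrps27 with Ptcd2 and Mrpl40 with Hira. The annotation places the genes on 17 chromosomes, and 26 overlap another protein-coding gene somewhere along their length, 4 of them on the same strand (Mrps24, Mrps6, Mrps34 and Mrpl53), so that their counts are less certain.

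**Figure D2:**
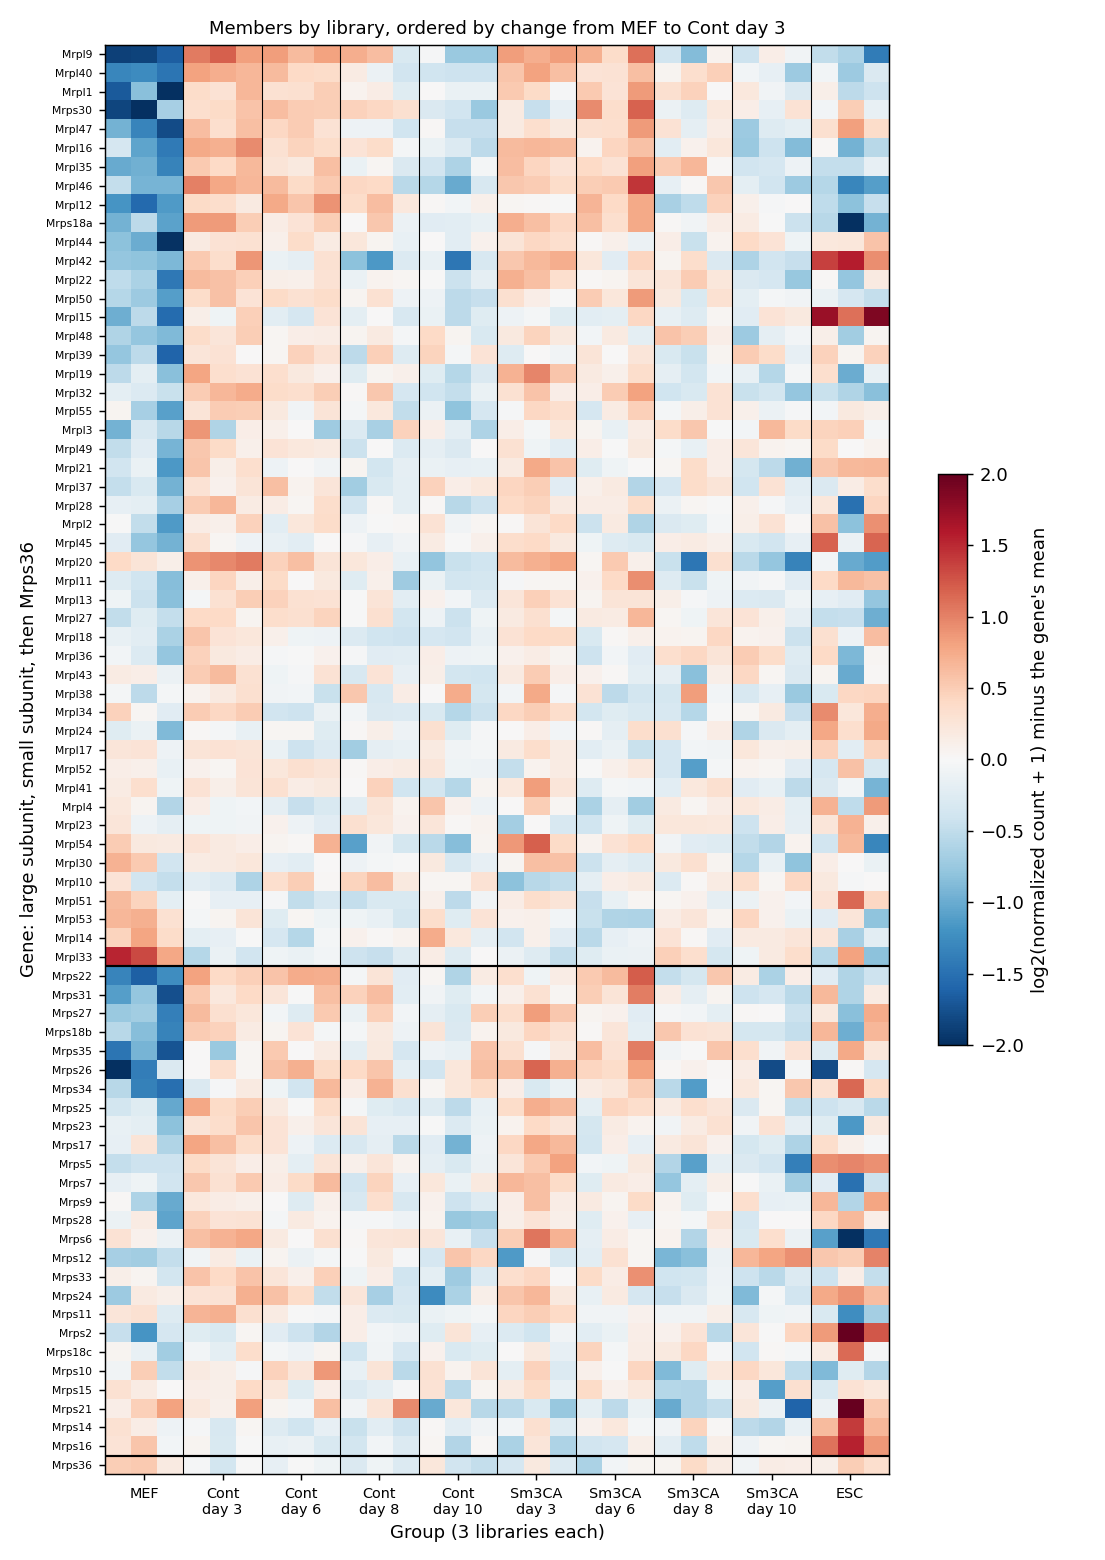
Each row is 1 of the 76 genes and each column 1 of 30 libraries, with the 3 libraries of a group side by side; colour is log2(normalized count + 1) minus that gene's mean over libraries (blue lower, red higher, limited to −2 and 2). Rows are ordered within the large and small subunit by the change from MEF to Cont day 3, and Mrps36 is the last row. The MEF columns are blue for most rows. Mrpl33, the only gene that edgeR called lower in Cont day 3, is at the foot of the large subunit block.

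Other genes of mitochondrial translation were counted between MEF and Cont day 3, beside 22.6% of all genes tested called higher and 20.9% lower. Of 8 further proteins bound to the mitochondrial ribosome under other symbols, 4 rose and 0 fell. Ptcd3, a small subunit protein that binds ribosomal RNA, rose by 1.35 ± 0.22 on the log2 scale (adjusted p = 3.68e-06), and Ptcd1, read at 0.864 to 6.67 normalized counts in MEF, by 1.95 ± 0.61 (adjusted p = 0.00826). Of 27 tested genes for ribosome assembly and rRNA modification, 15 rose and 0 fell. Noa1, a GTPase of small subunit assembly, had 13.1 ± 6.61 normalized counts in MEF and 45.7 ± 5.27 in Cont day 3 (SD, n = 3), a log2 fold change of 1.86 ± 0.32 (adjusted p = 9.28e-06). Of 15 translation factors, 10 rose and 0 fell, among them Tsfm, which recycles the elongation factor EF-Tu, from 11.7 ± 2.91 to 58.2 ± 13.4 (log2 fold change 2.46 ± 0.31, adjusted p = 2.05e-08).

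The same direction held for tRNA charging and for the upkeep of mitochondrial DNA and RNA. Of 19 tested mitochondrial aminoacyl-tRNA synthetases, 12 rose and 0 fell. Mars2, for methionine, rose by 2.65 ± 0.44 (log2, adjusted p = 4.29e-06). Of 20 genes for DNA and RNA maintenance, 13 rose and 0 fell. Tfam, which packages mitochondrial DNA and starts its transcription, rose by 1.10 ± 0.29 (adjusted p = 0.0018), and Trmt10c, part of mitochondrial RNase P, by 2.15 ± 0.26 (adjusted p = 8.6e-09). Its partner Prorp, the subunit that cuts mitochondrial tRNAs at their 5′ end, is listed under its older symbol 1110008L16Rik. That row went from 17.8, 9.77 and 14.7 normalized counts in MEF to 319, 350.2 and 381 in Cont day 3 (log2 fold change 4.74 ± 0.27, adjusted p = 5.52e-18), and had 174, 291 and 198 in ESC. Among nuclear genes for oxidative phosphorylation subunits, 11 of 87 rose and 11 fell, with a median of −0.01. Of 81 cytosolic ribosomal protein genes 28 rose and 1 fell (median 0.33). Of 34 tested rows of mitochondrial DNA, its RNAs of all kinds, 26 rose and 0 fell.

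Of the 13 regulators on the list 2 were higher and 2 lower, which in either direction is not above the share of all genes tested (22.6% higher and 20.9% lower). Max rose by 1.01 ± 0.31 (log2, adjusted p = 0.00649), although its libraries overlapped, and Ppargc1b was called higher with overlapping libraries (adjusted p = 0.0153). Myc fell from 92.2, 73.8 and 70.9 normalized counts in MEF to 24.96, 37.6 and 29.3 in Cont day 3 (log2 fold change −1.26 ± 0.31, adjusted p = 0.000868). Whether transcripts of the Myc cassette are counted in this row was not tested. Mycn was the other gene called lower, with 0 reads in all 3 Cont day 3 libraries and 8.89, 1.09 and 0.864 normalized counts in MEF. Most of its MEF signal lay in the first library, so this call rests on few reads of mainly that library.

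After day 3 the mitochondrial ribosomal protein genes declined in the control series, in small steps. Between day 10 and day 3 of Cont, 26 of 76 (34.2%) fell and 0 rose, beside 8.35% of all genes tested called lower and 10.7% higher. One gene had an unadjusted p under 0.05 in the direction of a rise, and the DESeq2 Wald test also called 0 higher. The median log2 fold change was −0.52, against 0.08 for all genes. In the large subunit 19 of 49 fell, and in the small subunit 7 of 26. Scaling by library size alone left 16 lower and made 1 higher.

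Few of these changes were called between neighbouring days. From day 3 to day 6 edgeR called 1 gene lower and 0 higher (with no adjustment 2 were higher, and by DESeq2 1), beside 1.98% of all genes tested lower and 2.94% higher. It was Mrpl34, named after its values were seen, a short large subunit protein, which fell from 262 to 152 normalized counts on average (log2 fold change −0.78 ± 0.21, adjusted p = 0.0192). A fit of those groups alone called 13 lower and 2 higher. From day 6 to day 8 edgeR called 0 in either direction (unadjusted, 10 lower and 0 higher, and by DESeq2 0 and 0), beside 0.0546% of all genes lower and 0.92% higher. From day 8 to day 10 it also called 0 in either direction (unadjusted, 7 lower and 1 higher, and by DESeq2 2 lower and 0 higher), beside 0.337% lower and 0.92% higher. The medians of the 3 steps were −0.19, −0.18 and −0.11.

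Mrpl20, a large subunit protein with a bacterial counterpart, had the largest fall. It was read at 620, 645 and 681 normalized counts on day 3 and at 191, 244 and 252 on day 10 (log2 fold change −1.53 ± 0.28, adjusted p = 6.02e-05), after 458, 502 and 397 on day 6 and 388, 363 and 298 on day 8. Its day 10 libraries lay below every MEF library (434, 396 and 360). Mrpl9 fell from 466, 515 and 399 to 221, 135 and 134 (−1.52 ± 0.26, adjusted p = 2.29e-05) and remained above its MEF libraries. Mrpl46, a mitochondria-specific protein of the large subunit, went from 418, 357 and 328 to 139.5, 103 and 166 (−1.46 ± 0.26, adjusted p = 4.68e-05). Mrpl42 went from 96.3, 85.6 and 124 to 60.5, 23.9 and 53.7 (−1.18 ± 0.27, adjusted p = 0.00135). Mrpl40 went from 586, 553 and 528 to 253, 251 and 251 (−1.17 ± 0.20, adjusted p = 3.29e-05). In each of the 5, all day 10 libraries were below all day 3 libraries.

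The partners of the ribosome were counted in the same comparison, where 8.35% of all genes tested were called lower and 10.7% higher. Of 27 assembly genes 2 fell and 0 rose, of 15 translation factors 1 and 0, of 19 aminoacyl-tRNA synthetases 1 and 0, and of 20 maintenance genes 6 and 0. Of 81 cytosolic ribosomal protein genes 22 fell and 0 rose, and of 87 oxidative phosphorylation genes 8 and 3. The rows of mitochondrial DNA had 6 lower and 1 higher of 34. Between day 10 and day 3 of Sm3CA, 12.2% of all genes tested were called lower and 14.2% higher. There 4 assembly genes fell and 1 rose, 2 translation factors fell and 1 rose, 1 aminoacyl-tRNA synthetase fell and 1 rose, and 3 maintenance genes fell and 1 rose, and the lower shares were near or below that of all genes. Of the cytosolic ribosomal protein genes 22 fell and 3 rose, and of the oxidative phosphorylation genes 13 fell and 6 rose. The rows of mitochondrial DNA had 10 higher and 3 lower, and the difference between the 2 series was not tested for these lists.

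**Figure D3:**
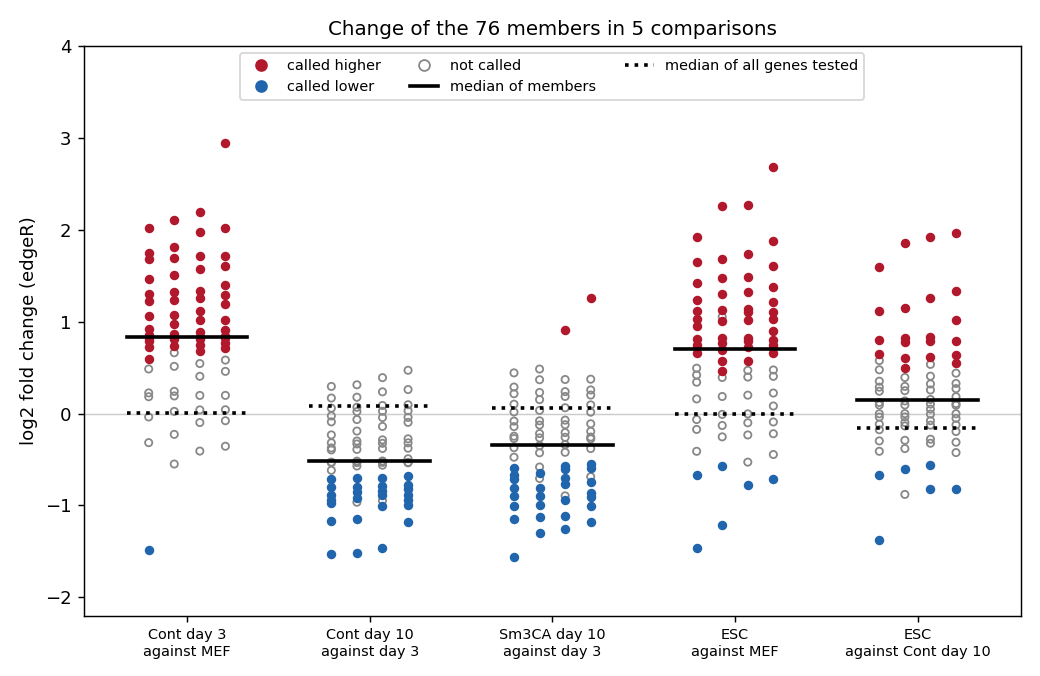
The log2 fold change of each of the 76 genes (points, vertical axis) in 5 comparisons (horizontal axis); filled red points were called higher and filled blue points lower by edgeR, open points were not called, and the solid and dotted lines are the medians of these genes and of all genes tested. The solid line is at 0.83 for Cont day 3 against MEF, at −0.52 and −0.34 for day 10 against day 3, and at 0.15 for ESC against Cont day 10, which turned to −0.27 by library size alone.

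The Sm3CA series tended to decline as well, with some genes that went the other way and with the same limit of plate rows and wells. Between day 10 and day 3 of Sm3CA, 28 of 76 (36.8%) fell and 2 rose, beside 12.2% of all genes tested lower and 14.2% higher. The median log2 fold change was −0.34, against 0.06 for all genes. In the large subunit 19 of 49 fell, and in the small subunit 9 of 26. Leaving out the second Sm3CA day 3 library reduced the genes called lower to 16, and using the first well of each library alone to 17. Of the 28 genes that fell, 25 (89.3%) were among the 51 that rose between MEF and Cont day 3, and these 25 are 49.0% of the 51. The 2 comparisons share no library. Their day 3 groups lay in the same plate rows and entered the same fit, so the comparisons are not independent. For all genes tested, 614 were shared, 45.9% of those that fell and 24.8% of those that rose. From MEF to Cont day 3, 67.1% of the 76 genes and 22.6% of all genes tested rose. A larger overlap for the 76 genes therefore follows in part from their larger share called.

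Mrpl20 fell most here too, from 517, 543 and 572 normalized counts to 229, 193 and 130 (log2 fold change −1.56 ± 0.28, adjusted p = 4.22e-05). Mrpl16, a large subunit protein with a bacterial counterpart, went from 293, 300 and 295 to 112, 142 and 103 (−1.30 ± 0.23, adjusted p = 4.62e-05). Mrps5, of the small subunit, went from 81.4, 99.2 and 120 to 56.1, 52.4 and 26.04 (−1.14 ± 0.25, adjusted p = 0.000521). Mrpl54 had a log2 fold change of −1.18 ± 0.32 (adjusted p = 0.00503), and Mrps26, read at no more than 49.2 normalized counts in any library, of −1.26 ± 0.40 (adjusted p = 0.0177), a call lost without the second library of day 3 (−1.05) or of day 10 (−0.80). The Mrps26 call held in 10 of 13 alternative settings.

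The 2 genes that rose were Mrps12 and Mrpl10, both with bacterial counterparts. Mrps12, the homologue of the bacterial S12 protein of the decoding centre, had 22.3, 49.2 and 39.6 normalized counts on day 3, 25.96, 27.6 and 46.01 on day 8 and 79.9, 87.4 and 95.1 on day 10 (day 10 against day 3, log2 fold change 1.26 ± 0.27, adjusted p = 0.000454). Its day 10 libraries were above all other Sm3CA libraries and lay within the range of ESC (70.4 to 100.3). Mrpl10, which anchors the L7/L12 stalk, rose from 42.2, 51.0 and 53.2 to 96.7, 77.6 and 100.3 (0.91 ± 0.23, adjusted p = 0.0029). In Cont, Mrps12 went from 47.2, 55.8 and 45.5 on day 3 to 39.5, 74.1 and 66.9 on day 10, which overlapped (0.26 ± 0.27, adjusted p = 0.544).

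**Figure D4:**
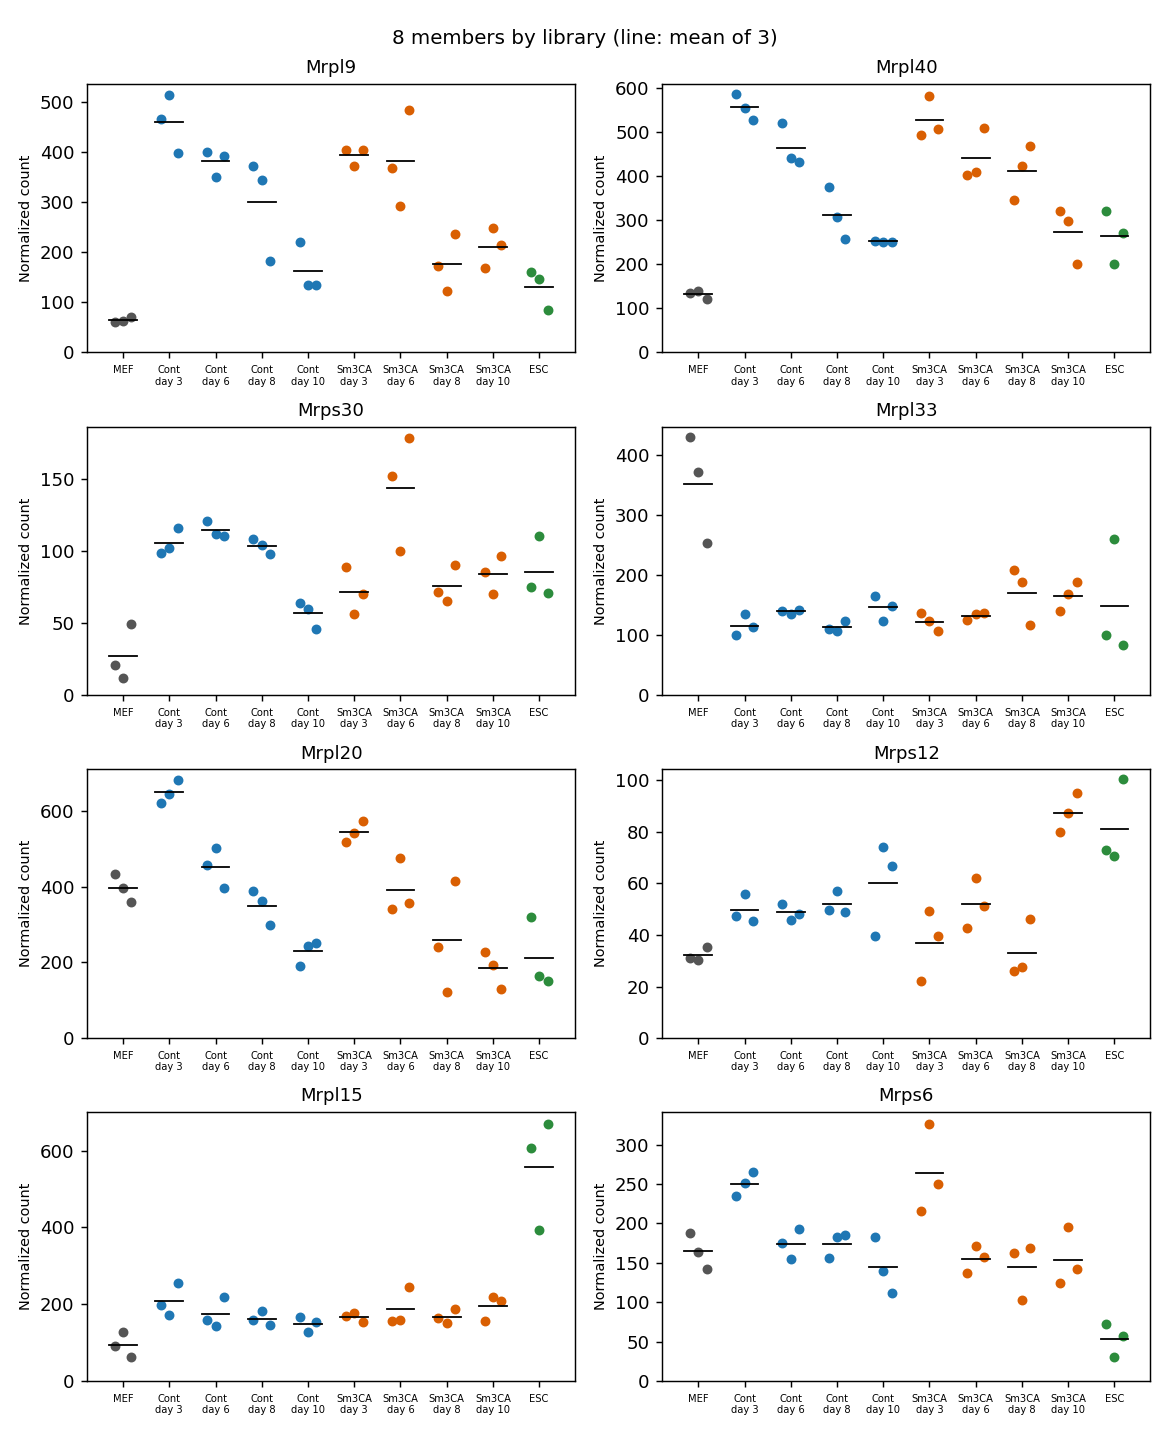
Normalized counts (vertical axes, from 0) of 8 genes in each library (points; line, mean of 3) for the 10 groups (horizontal axes). Mrpl9, Mrpl40 and Mrps30 are lowest in MEF, Mrpl33 is highest there, Mrpl20 declines from day 3 to day 10 in both series, Mrps12 is at 79.9 to 95.1 in Sm3CA day 10, Mrpl15 is at 394 to 670 in ESC and Mrps6 at 30.7 to 72.2.

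Within the Sm3CA series few genes were called in each step, and they are named after their values were seen. From day 3 to day 6, Mrps30 (adjusted p = 0.00925), Mrpl10 (0.0385) and Mrpl12 (0.0448) rose and Mrpl34, Mrpl30, Mrps6, Mrps17 and Mrpl21 fell, which is 3 genes higher and 5 lower, beside 6.52% of all genes tested higher and 5.87% lower. Leaving out 1 library at a time gave 0 to 2 higher and 0 to 5 lower, with 0 in both directions without the second day 3 or the third day 6 library. From day 6 to day 8, 6 fell (Mrpl9, Mrps30, Mrps22, Mrps33, Mrpl12 and Mrpl11) and 0 rose (5 at an unadjusted p under 0.05, and 1 by DESeq2), beside 1.52% lower and 1.33% higher overall. Mrpl12, which also binds the mitochondrial RNA polymerase, had 441, 362 and 468 normalized counts on day 6 and 176, 193 and 380 on day 8, and the third day 8 library stood apart from the other two. Without that library 12 genes were called lower, without either other day 8 library or the third day 6 library 0, and without the first day 6 library 3. Mrps30 and Mrpl12 thus rose in the day 3 to day 6 step and fell in the next. From day 8 to day 10, Mrps12 rose and Mrpl22 and Mrpl21 fell, the last of which had also fallen from day 3 to day 6, beside 1.27% higher and 0.783% lower overall. Mrps12 rose by 1.41 ± 0.27 on the log2 scale (edgeR adjusted p = 0.00121). Blocking on the replicate number, 1 gene was called higher and 0 lower, and leaving out 1 library at a time gave as few as 0 lower.

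The effect of active Smad3 was examined by setting Sm3CA against Cont on the same day. Of the 76 genes, edgeR called 0 higher and 0 lower at each of the 4 time points, and the DESeq2 Wald test also called 0. Over all genes tested the called shares were 0.0182% higher and 0% lower at day 3, 0.00911% and 0% at day 6, 0.0546% and 0.237% at day 8, and 0.355% and 1.69% at day 10. With no adjustment, 1 gene was higher and 1 lower at day 3 (2.63% of the genes, beside 3.76% of all genes tested), 0 and 1 at day 6 (1.32% beside 2.89%), 11 and 8 at day 8 (25% beside 11.5%), and 2 and 0 at day 10 (2.63% beside 12.8%). The medians were −0.08, −0.02, 0.05 and 0.08, beside 0.00, 0.00, −0.02 and 0.00 for all genes, and by library size alone the first and second were 0.03 and 0.01. That scaling also moved the medians of all genes, to 0.11 and 0.04, so that the distance between the medians was −0.08 on day 3 and −0.03 on day 6 under either scaling. The test of a change in the Sm3CA effect from day 3 to day 10 called 0 genes (without adjustment 4 higher and 1 lower, and 0 by DESeq2), beside 0.0273% of all genes higher and 0.355% lower.

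The intervals give the precision of each gene's log2 fold change. They are not adjusted for the number of genes tested. A gene can therefore miss the threshold although its interval leaves out 0. Mrpl42 on day 8 is an example (0.76, 0.22 to 1.29, edgeR adjusted p = 0.236). The 95% interval of a gene's log2 fold change reached 0.46 either side at the median over genes for days 3, 6 and 8 and 0.48 for day 10. It lay within −1 and 1, less than a doubling or halving, for 72 genes at day 3, 74 at day 6, 68 at day 8 and 70 at day 10. Mrps21, which had 1 read in its poorest library and 216 in all, had the widest interval at each time. A p that misses the threshold does not show that the cells were alike.

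**Figure D5:**
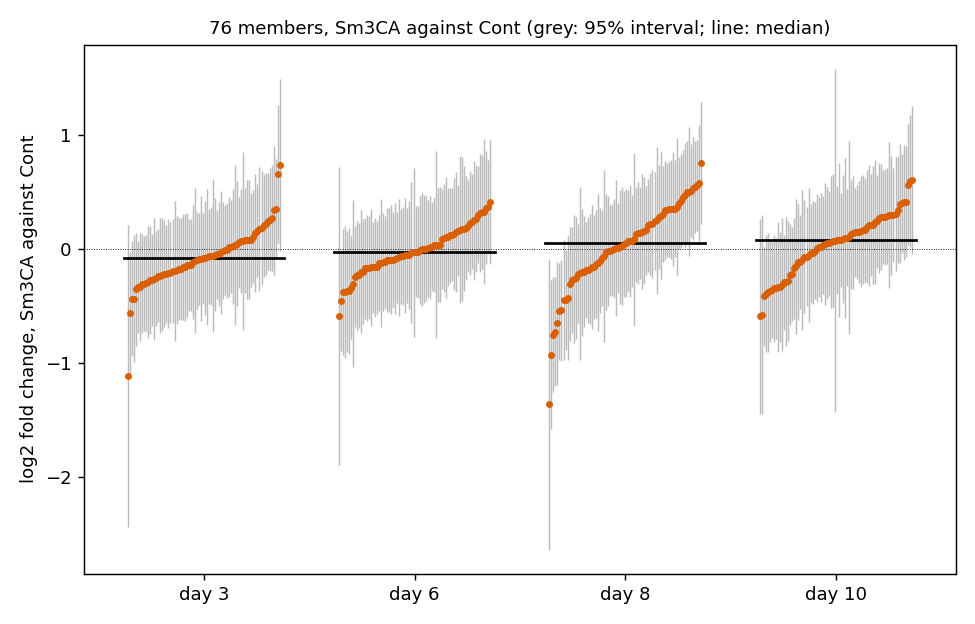
The log2 fold change of Sm3CA against Cont (vertical axis) for the 76 genes on each day (horizontal axis), sorted within a day; grey lines are 95% intervals and black lines medians. The medians are −0.08, −0.02, 0.05 and 0.08 (by library size alone 0.03 and 0.01 for the first and second, with all genes at 0.11 and 0.04), and 0 genes were called at any time.

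The genes with the lowest unadjusted p on each day are given as values. On day 3, Mrps30 had 89.0, 56.6 and 69.9 normalized counts in Sm3CA and 98.9, 102 and 116 in Cont (log2 fold change −0.56, 95% interval −1.10 to −0.02), and Mrpl54 had 73.7, 91.8 and 52.2 against 48.1, 45.4 and 43.9 (0.66, 0.05 to 1.27). Mrps26 on that day was at 0.74 (−0.02 to 1.49). The libraries of these 3 genes did not overlap, and the adjusted p was 1 for each in edgeR. On day 6, Mrpl53 was at −0.45 (−0.90 to −0.01), Mrps14 at 0.37 (−0.04 to 0.78) and Mrps35 at 0.41 (−0.13 to 0.96), again with edgeR adjusted p of 1, and Mrps35 overlapped.

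On day 8 Mrps5 had 45.1, 31.9 and 60.5 normalized counts in Sm3CA and 73.6, 81.2 and 72.2 in Cont (−0.72, −1.20 to −0.25, edgeR adjusted p = 0.196). Mrpl9 was at −0.75 (−1.25 to −0.24, edgeR adjusted p = 0.212) and Mrpl42 at 0.76 (0.22 to 1.29, edgeR adjusted p = 0.236), both with overlapping libraries. Myc was called lower in Sm3CA that day, at 4.33, 4.29 and 15.3 normalized counts against 21.5, 33.8 and 38.2 (log2 fold change −2.04 ± 0.36, edgeR adjusted p = 0.00189). On day 10 Mrps12 had 79.9, 87.4 and 95.1 in Sm3CA against 39.5, 74.1 and 66.9 in Cont (0.57, 0.04 to 1.10, edgeR adjusted p = 0.34). Mrps30 had 85.5, 69.9 and 96.4 against 64.2, 59.7 and 46.2 (0.60, 0.02 to 1.17, edgeR adjusted p = 0.364), the opposite sign to day 3, and Mrpl21 was at −0.41 (−0.84 to 0.02, edgeR adjusted p = 0.427).

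Pluripotent and fibroblast cells were compared by setting ESC against MEF, which also differ in genotype and medium. Of the 76 genes, 43 (56.6%) were higher in ESC and 6 (7.89%) lower, beside 29.1% of all genes tested higher and 30.5% lower. The median log2 fold change was 0.71, against 0.00 for all genes. In the large subunit 28 of 49 were higher and 4 lower, and in the small subunit 15 of 26 and 2. Without the second ESC library, which departed from the others for several genes, 44 were higher and 5 lower. Without the third, 41 were higher and 3 lower, and without the third MEF library 35 and 7. A fit of these 2 groups alone called 25 higher and 4 lower, and scaling by library size 33 and 10.

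The 5 genes furthest above MEF in ESC without overlap were Mrpl15, Mrps2, Mrpl42, Mrpl47 and Mrps34. Mrpl15, a large subunit protein with a bacterial counterpart, had 92.2, 127 and 62.2 normalized counts in MEF and 607, 394 and 670 in ESC (log2 fold change 2.68 ± 0.25, adjusted p = 1.87e-12), while all Cont and Sm3CA libraries lay between 127 and 255. Mrps2, of the small subunit, had 22.2, 13.03 and 24.2 in MEF and 56.6, 149.9 and 74.6 in ESC (2.26 ± 0.31, adjusted p = 3.96e-08). Mrpl42 went from 38.9, 37.99 and 35.4 to 175, 201 and 129 (2.25 ± 0.27, adjusted p = 2.28e-09). Mrpl47, a large subunit protein related to bacterial L29, was higher by 1.93 ± 0.22 (log2, adjusted p = 7.85e-10), and its difference from MEF was of like size in Cont day 3 (1.97 ± 0.22), where its mean of 329.9 normalized counts was beside 328.04 in ESC. Mrps34, at 8.64 to 17.8 in MEF, was higher by 1.88 ± 0.36 (adjusted p = 2.52e-05). None of the libraries of these 5 genes overlapped between the groups.

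Among the 6 genes lower in ESC, Mrps6 was the furthest below MEF. This small subunit protein had 188, 164 and 142 normalized counts in MEF and 72.2, 30.7 and 56.6 in ESC (−1.47 ± 0.26, adjusted p = 4.36e-06). Its annotated gene overlaps Slc5a3 on the same strand. Mrpl20 (−0.78 ± 0.28), Mrpl53 (−0.71 ± 0.22), Mrps11 (−0.67 ± 0.22) and Mrpl14 (−0.57 ± 0.25) were also lower without overlap, with edgeR adjusted p of 0.0135, 0.00483, 0.00815 and 0.0439. Leaving out the second ESC library ended the calls of Mrpl20 (−0.61), Mrps11 (−0.46) and Mrpl14 (−0.38), leaving out the third ended those of Mrpl20 (−0.58), Mrpl53 (−0.49) and Mrpl14 (−0.53), and leaving out the second MEF library that of Mrpl14 (−0.46). Over all 13 alternative settings, the calls held in 12 for Mrpl53, in 10 for Mrpl20 and for Mrps11, and in 7 for Mrpl14. Mrpl33 was called lower (−1.21 ± 0.26), with 99.6, 260.1 and 83.6 in ESC, so that the second ESC library overlapped MEF.

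The wider machinery was counted in ESC against MEF, where 29.1% of all genes tested were called higher and 30.5% lower. Of the 20 genes for mitochondrial DNA and RNA maintenance 13 were higher and 0 lower, with Tfam at 26.2 ± 11.5 normalized counts in MEF and 116 ± 15.7 in ESC (SD, n = 3). Of 19 aminoacyl-tRNA synthetases 11 were higher and 1 lower, of 15 translation factors 5 and 0, a share near that of all genes tested, of 27 assembly genes 13 and 2, and of the 8 further ribosome-bound proteins 4 and 0. Of 13 regulators 7 were higher and 0 lower, with Sp1 at 51.0 ± 9.93 in MEF and 255 ± 150 in ESC. Mpv17l2, which associates with the large subunit, was lower by −2.44 ± 0.46 on the log2 scale (adjusted p = 1.7e-05). Of 81 cytosolic ribosomal protein genes 73 were higher and 0 lower (median 1.11), and of 87 oxidative phosphorylation genes 38 and 4 (median 0.35). Mycn had 126, 336 and 144 normalized counts in ESC and at most 8.89 in MEF, while Myc did not pass the test (−0.55 ± 0.30, adjusted p = 0.11).

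The end of the time course was set against ESC, which also differ from these groups in viral vector and doxycycline. Against Cont day 10, ESC had 21 genes higher (27.6%) and 6 lower (7.89%), beside 21.5% of all genes tested higher and 30.3% lower. The median was 0.15, against −0.15 for all genes. These counts turn with the scaling: by library size alone 7 were higher and 20 lower, with medians of −0.27 for these genes and −0.57 for all genes. The distance between the medians was 0.30 under the main scaling and 0.31 by library size. Against Sm3CA day 10, 17 were higher and 5 lower, beside 18.6% and 27.2% of all genes, with medians of 0.11 and −0.15, and by library size 10 were higher and 21 lower. Fits of the compared groups alone called fewer genes higher in both comparisons.

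Mrpl15 (1.92 ± 0.24), Mrpl42 (1.86 ± 0.27), Mrps2 (1.59 ± 0.30), Mrps16 (1.33 ± 0.23) and Mrps24 (1.26 ± 0.38) were the furthest above Cont day 10 in ESC, on the log2 scale, among the genes called without overlap. Mrps24 was read at only 7.41 to 20.7 normalized counts in Cont day 10. Its call held in 11 of 13 alternative settings, with log2 fold changes of 0.83 to 1.78. Mrps21 was called higher as well (1.96 ± 0.65), but it had 43.4 normalized counts in the second ESC library and 5.48 and 9 in the others, against 2.47 to 7.17. Mrps16 was at 131, 84.8 and 130.04 normalized counts in Cont day 10 and at 272, 372 and 234 in ESC, above all other libraries of the series. Mrps6 was lower by −1.37 ± 0.26 (adjusted p = 2.26e-05), with 183, 140 and 112 in Cont day 10. Mrps18a, a large subunit member of a family of 3 related proteins, was at 191, 194 and 203 in Cont day 10 and at 153, 50.6 and 116 in ESC (−0.82 ± 0.25, adjusted p = 0.00547). Mrps10, Mrps7 and Mrpl12 were lower by −0.82 ± 0.32, −0.67 ± 0.29 and −0.60 ± 0.22, with edgeR adjusted p of 0.0314, 0.0495 and 0.0193. With the replicate number as a block, Mrps7 did not pass the test (log2 fold change −0.66). Leaving out the second ESC library ended the calls of Mrps18a (−0.46), Mrps7 (−0.36) and Mrpl12 (−0.44). Those of Mrps10, Mrps7 and Mrpl12 were also lost without the first or the third Cont day 10 library, and those of Mrps10 and Mrps7 without the third ESC library. Leaving out the first ESC library ended that of Mrps10 (−0.65). Over all 13 alternative settings, the calls held in 10 for Mrps18a and for Mrpl12, in 7 for Mrps10 and in 5 for Mrps7.

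The 3 members of the S18 family are given side by side. Mrps18a rose from 117, 156 and 107 normalized counts in MEF to 405, 407 and 316 in Cont day 3 (log2 fold change 1.69 ± 0.24, adjusted p = 2.91e-07) and did not differ from MEF in ESC by the test (−0.10 ± 0.25, adjusted p = 0.758). Mrps18b rose from 269, 220.3 and 156 to 568, 550.0 and 445 (1.40 ± 0.26, adjusted p = 2.1e-05) and was called higher in ESC (1.30 ± 0.26, adjusted p = 3.11e-05), although the second ESC library, at 200.5 against 632 and 629, was within the MEF range. Mrps18c was at 402, 350 and 239 in MEF and 372, 337 and 493 in Cont day 3 (0.41 ± 0.23, adjusted p = 0.148). It was called higher in ESC (0.82 ± 0.23, adjusted p = 0.00207), at 431, 849 and 381, although the third ESC library was within the MEF range. Without the second ESC library Mrps18c did not pass the test (0.42 ± 0.21, adjusted p = 0.081), nor in an edgeR fit of those groups alone (adjusted p = 0.0786). The differences between the 3 genes were not tested.

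Some genes that link the ribosome to other processes were followed by name. Mrpl12 went from 121, 93.3 and 124 normalized counts in MEF to 359, 353 and 313 in Cont day 3 (1.71 ± 0.22, adjusted p = 3.15e-08), and reached 467, 405 and 515 on day 6. Mrpl44, related to RNase III enzymes, rose from 37.8, 33.6 and 16.4 to 76.7, 83.02 and 83.7 (1.61 ± 0.25, adjusted p = 1.42e-06). It was then at 58.5 to 71.6 in Cont day 10 and 78.6 to 102 in ESC. Mrpl45, which ties the ribosome to the inner membrane, rose by 0.84 ± 0.23 (log2, adjusted p = 0.00285) and in ESC had 394, 159 and 390. Mrps28 rose by 0.73 ± 0.23 (adjusted p = 0.00767) and fell by 0.79 on the log2 scale between day 3 and day 10 of Cont (adjusted p = 0.0117).

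A few genes varied little. The ratio of the highest to the lowest group mean was 1.51 for Mrpl17, 1.54 for Mrps36 and 1.6 for Mrpl36, the smallest among genes with a mean of at least 50 normalized counts, and reached 7.12 for Mrpl9. Over all 76 genes the lowest group mean was in MEF for 39, and the highest was in ESC for 23, in Cont day 3 for 18 and in Sm3CA day 3 for 11. Mrps36, the gene whose product is not a ribosomal protein, was at 273, 279 and 219 normalized counts in MEF and 191, 149 and 192 in Cont day 3, with a log2 fold change of −0.41 ± 0.20 that did not pass the test (adjusted p = 0.104). Reads of Mrps36 and of a few others, such as Mrpl48 and Mrpl27, may be shared with processed pseudogenes.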

How the data were processed

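The authors deposited raw counts of reads (not of molecules) for every gene in each well. Per the labels, the submitters' processing notes name Bowtie 0.12.9, DESeq2 1.6.3 and the mouse genome mm10; the annotation version was not given in the sources used here. The 84 wells were summed into 30 libraries, 3 wells each and 2 on day 10, and 0 columns were left out. Of 30 replicate pairs, 0 held identical values.

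All libraries entered one 10-group fit in edgeR 4.0.16 under R 4.3.3 (filterByExpr, TMM scaling, quasi-likelihood test, Benjamini-Hochberg adjustment over 10979 genes, threshold 0.05) with 17 comparisons. Printed levels are counts divided by DESeq2 1.42.0 size factors over the 30 libraries. Errors are SE for fold changes and SD for levels, and intervals cover 95%. On simulated counts for ESC against MEF (10979 genes), 25 of 100 genes changed 2-fold and 69 of 100 changed 4-fold were called, 0 in the wrong direction. The other 10779 genes were left unchanged there, whereas in the data 29.1% of genes were called higher and 30.5% lower. The adjustment was thus stricter in the simulation, and its shares do not give what the real comparison could find.

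The design text pairs replicate numbers over days within each series. Same-numbered libraries of consecutive days had correlated deviations of −0.0828 to 0.136 over 18 pairs. Between Cont and Sm3CA on one day, 12 pairs gave −0.12 to 0.0827. Wells were arrayed on one plate by day: MEF, ESC and day 3 shared rows, days 6 and 8 shared others and day 10 lay apart, so that day and plate position cannot be told apart in comparisons across those rows.

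The genes and lists were chosen with earlier results of these data known. Named genes were up to 5 per direction with the largest change among those called without overlap in the main comparisons (where 0 were called, the 3 with the lowest unadjusted p), 10 genes of known role, and the 3 steadiest genes with a mean of at least 50. From other lists, Myc, Smad3 and up to 2 called genes per direction in the first comparisons could be named. Alternatives were other scalings, no filter, a fit of the compared groups alone, the replicate block, the first well alone, the DESeq2 Wald test and leaving out each replicate. Gene positions come from GENCODE vM21 (mm10) and promoters from RefSeq (GRCm38.p6). Python tables were made with pandas, scipy and matplotlib.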

Additional observations from a re-analysis of the deposited data

How the results depend on the processing

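Counts of genes called higher and lower moved by over 1.5 times under some settings, and the cause was not tested unless the setting itself used fewer libraries or wells. Scaling by library size alone gave 10 lower for ESC against MEF, 2 lower for Cont day 3 against MEF, 1 higher for Cont day 6 against day 3, 1 higher and 16 lower for Cont day 10 against day 3, 7 higher and 20 lower for ESC against Cont day 10, 1 higher and 3 lower for Sm3CA day 8 against day 6, 4 lower for Sm3CA day 10 against day 8, and 10 higher and 21 lower for ESC against Sm3CA day 10. Medians changed sign under it for both ESC against day 10 comparisons (−0.27 and −0.25), for Sm3CA day 8 against day 6 (0.00878), for Sm3CA against Cont on days 3 and 6 (0.03 and 0.01) and for the change of the Sm3CA effect (−0.0284). In each of these, the distance from the median of all genes kept its sign. DESeq2 size factors gave 3 lower for Cont day 3 against MEF.

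Fitting only the groups compared gave 25 higher for ESC against MEF, 2 lower for Cont day 3 against MEF, 2 higher and 13 lower for Cont day 6 against day 3, 2 lower for Cont day 8 against day 6, 1 lower for Cont day 10 against day 8, 11 higher and 2 lower for ESC against Cont day 10, 8 lower for Sm3CA day 6 against day 3, 2 lower for Sm3CA day 8 against day 6, 11 higher for ESC against Sm3CA day 10, and 1 higher for the change of the Sm3CA effect. The DESeq2 Wald test gave 4 lower for Cont day 3 against MEF, 1 higher and 3 lower for Cont day 6 against day 3, 2 lower for Cont day 10 against day 8, 8 lower for Sm3CA day 6 against day 3, 1 higher for Sm3CA day 8 against day 6 and 7 lower for Sm3CA day 10 against day 8. The first well alone gave 2 lower for Cont day 3 against MEF, 0 lower for Cont day 6 against day 3, 3 lower for ESC against Cont day 10, 2 lower for Sm3CA day 6 against day 3, 1 lower for Sm3CA day 8 against day 6 and 17 lower for Sm3CA day 10 against day 3. With no filter on low counts, Cont day 10 against day 8 had 2 lower.

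The replicate block left 0 lower for Sm3CA day 10 against day 8 and ended the call of Mrps7 in ESC against Cont day 10 (−0.66). It moved no other count of calls by over 1.5 times and ended no other call of a named gene.

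Leaving out 1 library at a time gave 3 to 7 lower for ESC against MEF, 0 to 1 lower for Cont day 6 against day 3, 0 to 2 lower for Cont day 10 against day 8, 2 to 6 lower for ESC against Cont day 10, 0 to 2 higher for Sm3CA day 6 against day 3, 0 to 5 lower for Sm3CA day 6 against day 3, 0 to 12 lower for Sm3CA day 8 against day 6, 0 to 3 lower for Sm3CA day 10 against day 8, 16 to 22 lower for Sm3CA day 10 against day 3, 4 to 8 lower for ESC against Sm3CA day 10 and 0 to 1 lower for Sm3CA against Cont on day 8.

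Without the 100 rows with the most reads, the mean share of reads in these genes was 0.937% in MEF, 1.75, 1.65, 1.46 and 1.32% in Cont at days 3, 6, 8 and 10, 1.67, 1.67, 1.56 and 1.39% in Sm3CA at those days and 1.39% in ESC. Of the values of named genes under an alternative, 612 kept their direction and side of the threshold, 38 kept the direction and lost the call, and 0 reversed. The 612 include genes of Sm3CA against Cont, which were not called and so had no call to lose. The other genes were picked as the largest called changes, so these totals do not describe the genes at large. No spike-in rows were in the counts, so scaling by spike-in was not run, and no pseudogene symbols were among the genes, so their removal was not run. At this depth the rarest genes (Mrps21, with 216 reads in all) limit what can be seen.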
